A study of Mus musculus with 6 samples.

Results

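The endothelin and natriuretic peptide systems were followed in mouse kidney cortex through 10 genes, namely Edn1, Ece1, Ednra, Ednrb, Corin, Npr1, Npr2, Npr3, Nos3 and Prkg1. Members were all bead-array probes whose platform annotation carried one of these symbols, and their expression was compared between captopril and control mice probe by probe. This gave 23 of the 45281 probes on the array, and they covered 9 of the 10 genes. No probe carried the symbol Ednra, the endothelin A receptor gene, and that gene was not analysed here. The captopril group was 3 male C57BL6 mice given the angiotensin-converting enzyme inhibitor captopril at 10 mg/kg/day with their drinking water for 7 days from 11 weeks of age. The control group was 3 male C57BL6 mice, and the labels give 12 weeks as the age of all 6 animals and name no genetic change in any. One total RNA sample of kidney cortex per mouse was hybridised to its own Illumina MouseWG-6 v2 array. The labels do not say whether the same replicate number in both groups marks a shared cage or day.

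Endothelin 1 is a vasoconstrictor peptide cut from an inactive precursor by endothelin-converting enzyme. It acts through the A receptor of vascular smooth muscle and through the B receptor, which in the kidney is found on endothelium and collecting duct cells and is coupled to nitric oxide release and salt excretion. Natriuretic peptides oppose it. The protease corin activates the atrial peptide, the receptors Npr1 and Npr2 make cGMP when they bind their peptides, and Npr3 clears the peptides from the circulation. Nitric oxide from the endothelial synthase Nos3 raises cGMP by another route, and both routes meet at the cGMP-dependent kinase Prkg1. Captopril blocks both the formation of angiotensin II and the breakdown of bradykinin, which act on endothelial cells that make endothelin 1 and nitric oxide.

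The arrays were alike in depth of detection. Between 36.2% and 38.2% of probes were detected, meaning that their detection p-value against negative controls was under 0.05, and the median raw intensity ran from 119 to 147 on captopril arrays and from 111 to 142 on control arrays. No pair of arrays held identical values. All 10 proximal tubule markers of the cortex were detected widely enough to be tested, whereas 0 of the 5 heart muscle markers with a probe were, a list that includes Nppa. In whole cortex, fewer cells of a type and less RNA per cell cannot be told apart, and this holds for every value that follows. The limma p-values set a group difference against the spread between mice within the groups, moderated over all tested probes. With 3 arrays per group their precision is limited.

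The 23 member probes fell into sets detected on all arrays, on some arrays and on none. On all 6 arrays 10 probes were detected, and they belonged to 8 genes, every member but Npr1 and Ednra. On no array were 7 probes detected, of which 4 were Npr3 probes and 1 each belonged to Ednrb, Nos3 and Prkg1. The other 6 were detected on some arrays. Detection on at least 3 of the 6 arrays, in whichever group, was required for a test, and 12 probes of 8 genes met it. That is 52.2% of the member probes, beside 41.1% of all probes with a gene name. Member probes were detected in equal number, 13, on each of the 3 captopril arrays, against 11, 11 and 13 on control arrays 1, 2 and 3. Of all probes, 38.2%, 36.2% and 37.1% were detected on captopril arrays 1, 2 and 3. The shares on control arrays 1, 2 and 3 were 37.8%, 36.6% and 37.0%.

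**Figure D1:**
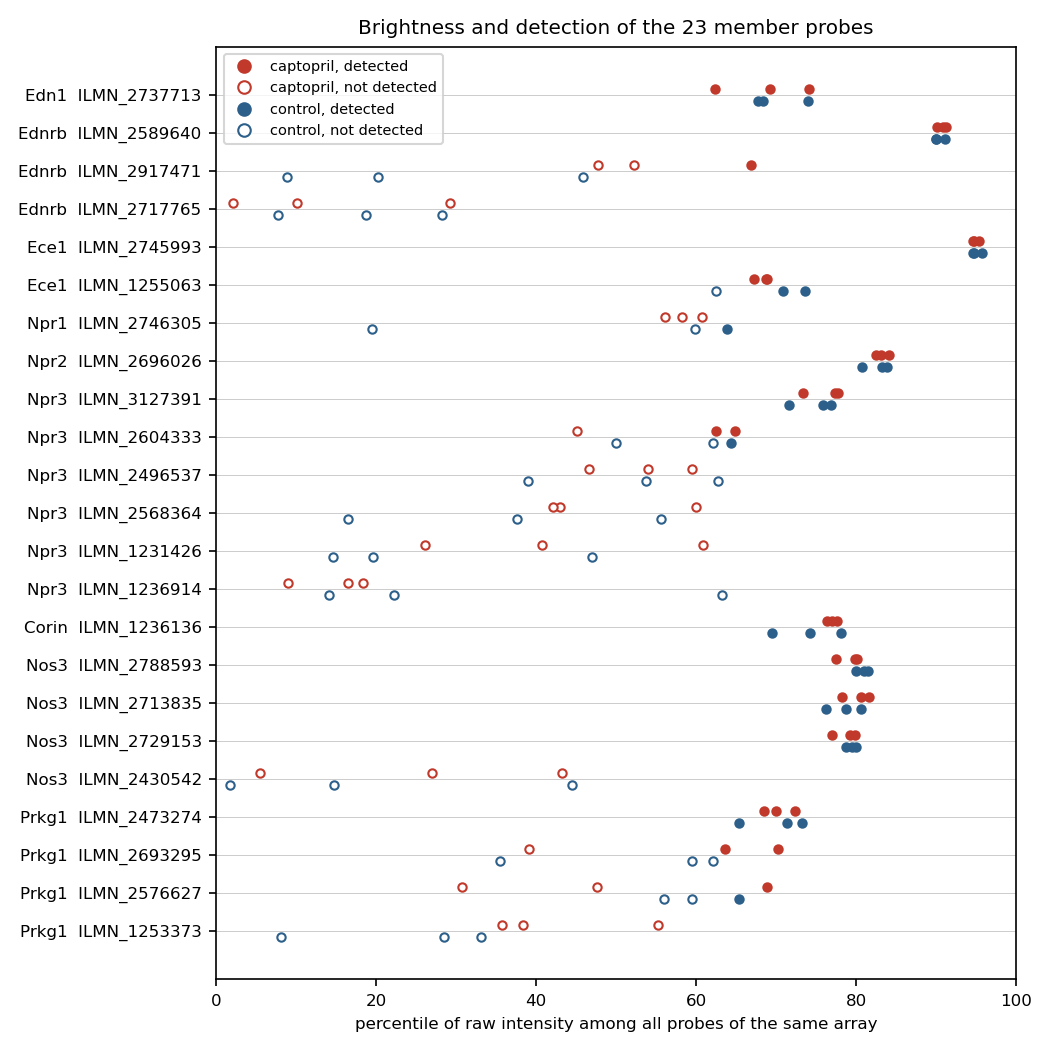
Raw intensity of each of the 23 member probes, as a percentile among all probes of the same array (horizontal axis, 0 to 100), with captopril arrays in red above control arrays in blue, filled where the probe was detected. The bright probes of Ece1 and Ednrb lie at or above the 90th percentile on all 6 arrays, whereas most Npr3 probes lie below their array's detection limit.

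The brightness of a probe depends on its sequence as well as on its transcript, so these positions describe each probe and do not rank the transcripts. The brighter Ece1 probe, ILMN_2745993, lay between the 94.6th and the 95.8th percentile of its arrays. The brightest Ednrb probe, ILMN_2589640, lay between the 90.0th and the 91.3rd, and the Npr2 probe between the 80.8th and the 84.2nd. The 3 detected Nos3 probes lay between the 76.3rd and the 81.7th percentile. Corin ran from the 69.5th to the 78.1st percentile, the brighter Npr3 probe from the 71.6th to the 77.7th, the brightest Prkg1 probe from the 65.4th to the 73.3rd and Edn1 from the 62.4th to the 74.1st. Edn1 was therefore detected on every array but close to the limit, with detection p-values from 0.00107 to 0.0374.

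Edn1, the gene of the peptide itself, did not differ between the groups beyond their spread. Its only probe had raw intensities of 159, 153 and 160 on captopril arrays and 186, 125 and 147 on control arrays. After background correction and quantile normalization its log2 levels were 5.03, 6.01 and 5.45 in captopril cortex, against 5.98, 5.33 and 5.37 in control cortex. One mouse of each group, captopril 2 and control 1, stood about equally high above the rest, and the groups overlapped. The means were 5.50 ± 0.49 in captopril and 5.56 ± 0.37 in control cortex (SD, n = 3 each), a log2 difference of -0.06 (SE 0.27, limma adjusted p = 0.995). The 95% interval ran from -0.69 to 0.56, the widest of all member probes, and the spread of Edn1 within groups was at the 93.8th percentile of all tested probes. The sign turned when captopril array 1 or control array 1 was left out (0.16 and 0.15), and the value was 0.33 with the adipocyte marker level as a covariate. Changes of this gene within that interval remain possible, and the interval does not mark the smallest change that would have passed the threshold.

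Ece1, which encodes the enzyme that cuts the precursor to the active peptide, did not differ beyond the spread between mice on either of its probes. The brighter probe had log2 levels of 10.05, 10.31 and 10.08 in captopril cortex, against 10.08, 10.07 and 10.45 in control cortex. Each group held one array above the other two, captopril 2 and control 3, and the ranges overlapped almost fully. The log2 difference was -0.05 (SE 0.16), with a 95% interval from -0.41 to 0.31, that is 0.754-fold to 1.24-fold (limma adjusted p = 0.995). The second Ece1 probe, ILMN_1255063, was dim and undetected on control array 2. Its levels were 5.42, 5.29 and 5.41 in captopril cortex and 5.62, 5.03 and 5.94 in control cortex. The control mice were the more scattered ones on that probe, with captopril inside their range, and the difference was -0.16 (SE 0.22). Both Ece1 differences changed sign without control array 3, to 0.07 for the brighter and 0.05 for the dimmer probe, and the brighter probe stood at 0.035 with median scaling.

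Ednrb, the endothelin B receptor gene, had the narrowest interval of the members and groups that overlapped. Its brightest probe had raw intensities of 839, 540 and 603 on captopril arrays and 601, 491 and 633 on control arrays. On the log2 scale these became 9.14, 9.06 and 8.89 in captopril cortex, against 8.85, 8.85 and 9.11 in control cortex. Captopril 2 and captopril 3 lay within the control range, and control 3 lay within the captopril range. The means were 9.03 ± 0.13 in captopril and 8.94 ± 0.15 in control cortex (SD, n = 3 each). The log2 difference was 0.09 (SE 0.14) with a 95% interval from -0.23 to 0.41 (limma adjusted p = 0.995). The interval corresponds to 0.852-fold to 1.33-fold. The difference was 0.033 without captopril array 1 and 0.18 without control array 3.

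The other 2 Ednrb probes were designed on the same transcript but were too dim to be tested. ILMN_2917471 was detected only on captopril array 1, where its intensity was 168, with 118 and 139 on captopril arrays 2 and 3 and 125, 109 and 118 on control arrays. After normalization its levels of 5.26, 4.71 and 4.77 in captopril cortex all lay above 4.40, 4.68 and 4.48 in control cortex, although captopril 2 exceeded control 2 by little. With no filter on dim probes it had an unadjusted p of 0.0446 and an adjusted p of 0.993 in limma. ILMN_2717765 was undetected on every array.

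Among the natriuretic peptide genes Corin had the largest difference in value, and its groups overlapped. Its probe had log2 levels of 6.33, 6.45 and 6.54 in captopril cortex, against 6.02, 5.47 and 6.61 in control cortex. The captopril mice lay close together, while control 2 was the lowest and control 3 the highest of all 6 mice. The means were 6.44 ± 0.10 in captopril and 6.04 ± 0.57 in control cortex (SD, n = 3 each), a log2 difference of 0.40 (SE 0.26, 95% interval -0.20 to 1.00, limma adjusted p = 0.995). The value rested on the control mice, since it was 0.12 without control array 2 and 0.69 without control array 3. Omitting the background correction gave 0.15, and the authors' processed values gave 0.07. The protein is best known from the heart, and heart muscle markers were not detected widely enough on these arrays to be tested.

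Npr1, the guanylyl cyclase receptor for the atrial and brain peptides, was near or below the detection limit. Its only probe had intensities of 152, 123 and 145 on captopril arrays and 130, 116 and 139 on control arrays. It was detected on 0 of 3 captopril arrays and on 1 of 3 control arrays, so it was not tested and no fold is given. Npr2, the receptor for the C-type peptide, was detected on all 6 arrays. Its log2 levels were 7.35, 7.47 and 7.67 in captopril cortex, against 7.51, 7.06 and 7.61 in control cortex. Control 2 was the lowest and captopril 3 the highest, with the other 4 mice between them. The difference was 0.11 (SE 0.18, 95% interval -0.30 to 0.51, limma adjusted p = 0.995), and it was -0.06 without control array 2.

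Npr3, the clearance receptor gene, had 6 probes, of which 2 were tested. Of the 6, 3 were designed on one RefSeq transcript, 2 on another and 1 on a cDNA clone, and the 2 tested ones were those of the second transcript. ILMN_3127391 had log2 levels of 6.56, 6.51 and 5.90 in captopril cortex, against 6.27, 5.69 and 6.42 in control cortex. Captopril 3 and control 2 were the low mice, and the groups overlapped. The difference was 0.20 (SE 0.24, 95% interval -0.37 to 0.76, limma adjusted p = 0.995), which was -0.02 without control array 2 and 0.41 without captopril array 3. ILMN_2604333, detected on 2 captopril arrays and 1 control array, gave -0.01 (SE 0.17) and 0.029 with median scaling, and ran from -0.12 to 0.13 in the 3 of 6 fits without 1 array in which it was still tested. The remaining 4 Npr3 probes, ILMN_2496537, ILMN_2568364, ILMN_1231426 and ILMN_1236914, had intensities of 98.6 to 146 and were undetected on all 6 arrays.

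Podocytes and fat cells are known to express Npr3, and their marker levels were set beside it. The 5 podocyte markers tested had values lower in captopril cortex in 5 of 5 cases, with 0 past the threshold. Of all named genes 49.1% were higher in captopril cortex. Nphs1 (-0.48, unadjusted p = 0.0332 in limma) and Podxl (-0.22) were lower without overlap of the groups, and the other podocyte markers overlapped. Among all named genes 8.73% had no overlap and 3.69% had an unadjusted p under 0.05. The mean level of the 5 podocyte markers, centred on the 6 arrays, ran from -0.25 to 0.06 in captopril and from 0.001 to 0.19 in control cortex. Their summed log2 level was 11.6 to 11.9 in captopril and 11.8 to 12.0 in control cortex. The 7 adipocyte markers tested were higher in value in captopril cortex in 7 of 7 cases, beside 49.1% of all named genes, again with 0 past the threshold. Their centred level ran from -0.57 to 0.84 in captopril and from -0.87 to 0.19 in control cortex, and their summed log2 level from 14.0 to 14.2 in captopril and from 13.7 to 14.1 in control cortex. Lpl, which is not confined to fat, made up much of that sum. Differences of the 7 ran from 0.15 to 1.43, with that of Adipoq, detected on 4 of 6 arrays, at 0.54. Car3, detected on 6 of 6 arrays, was higher by 0.42 (unadjusted p = 0.0288 in limma) without overlap of the groups. The other adipocyte markers tested overlapped. Of the 12 adipocyte markers with a probe, 5 were not detected widely enough to be tested, Fabp4 among them. With the adipocyte level as a covariate the brighter Npr3 probe stood at 0.25 (SE 0.30) and the dimmer at -0.16 (SE 0.19). The part of podocyte content in the Npr3 values was not tested.

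Nos3, the endothelial nitric oxide synthase gene, was measured by 4 probes of the same transcript, and the 3 that were tested did not give one direction. ILMN_2788593 had log2 levels of 6.53, 6.91 and 6.94 in captopril cortex, against 6.92, 7.19 and 7.10 in control cortex. Captopril 1 was the lowest mouse, and captopril 3 lay just above control 1, so that the groups overlapped. The difference was -0.28 (SE 0.16, 95% interval -0.64 to 0.08), with the smallest unadjusted p of all member probes, 0.116 in limma, and an adjusted p of 0.995. ILMN_2713835 had levels of 6.64, 7.22 and 7.02 in captopril cortex, against 6.33, 7.03 and 6.72 in control cortex. The captopril values reached higher, while captopril 1 and 3 lay within the control range. That difference was 0.27 (SE 0.22, 95% interval -0.23 to 0.77, limma adjusted p = 0.995). It was 0.085 without control array 1 and 0.44 without control array 2, and that of ILMN_2788593 was -0.14 without captopril array 1 and -0.35 without control array 1.

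The third Nos3 probe, ILMN_2729153, lay between the other two in its difference. Its levels were 6.44, 6.91 and 6.80 in captopril cortex and 6.73, 6.85 and 6.94 in control cortex, a difference of -0.13 (SE 0.16), which was 0.01 without captopril array 1. The mean of the 3 tested probes gave -0.05 (SE 0.16, 95% interval -0.42 to 0.33, limma adjusted p = 0.996). The fourth probe, ILMN_2430542, was undetected on all arrays. Raw intensities of ILMN_2713835 were 249, 221 and 248 on captopril arrays and 204, 202 and 208 on control arrays, which did not overlap. Control array 2, however, was the dimmest array, and after division by the array's median intensity the values were 1.69, 1.87 and 1.80 in captopril and 1.43, 1.82 and 1.61 in control cortex, which overlapped.

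Among the tested Nos3 probes 3 pairs could be formed, and their differences within an array separated the groups, a pattern noticed after the values were seen. ILMN_2713835 minus ILMN_2788593 was 0.10, 0.31 and 0.08 on captopril arrays, against -0.60, -0.16 and -0.38 on control arrays, on the log2 scale. The means were 0.16 ± 0.13 in captopril and -0.38 ± 0.22 in control cortex (SD, n = 3 each), and the exact two-sided permutation test gave p = 0.1, the smallest that 3 against 3 arrays allow. Groups that do not overlap always give this value. It therefore restates the separation for which the pairs were singled out and is no further evidence for it. ILMN_2713835 minus ILMN_2729153 differed by 0.39 between the groups and ILMN_2729153 minus ILMN_2788593 by 0.15, each with the same exact p. Both separated the groups only narrowly. The former was 0.20, 0.31 and 0.22 on captopril arrays, against -0.40, 0.18 and -0.22 on control arrays. The latter was -0.09, 0.0004 and -0.14 on captopril arrays, against -0.19, -0.34 and -0.16 on control arrays. These 3 comparisons share probes and are not independent, and over the 5 probe pairs of member genes the adjusted exact p was 0.167. Groups did not overlap in 7.9% of the 6275 such pairs over all named genes. Without background correction the first pair differed by 0.28 and in the authors' values by 0.15, without overlap in either, whereas ILMN_2713835 and ILMN_2729153 overlapped in both. All 3 probes are annotated to 1 RefSeq transcript, and where they lie on it was not used here. The pairs of the 2 Ece1 probes and of the 2 Npr3 probes overlapped between groups.

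Markers of endothelium, the main site of Nos3, went both ways in value. All 14 endothelial markers were tested, 8 were higher and 6 lower in value in captopril cortex, and 0 passed the threshold. Eng (-0.28, unadjusted p = 0.0475 in limma) and Esam (-0.25) were lower in captopril cortex without overlap of the groups. Over all named genes 8.73% had no overlap and 3.69% had an unadjusted p under 0.05. Their centred level was -0.17 to 0.18 in captopril and -0.05 to 0.06 in control cortex, with captopril 2 the highest and captopril 3 the lowest mouse, and their summed log2 level was 13.3 to 13.7 in captopril and 13.5 to 13.6 in control cortex. Captopril 2 was also the mouse with the highest level of Edn1 and of the Nos3 probe ILMN_2713835. Edn1 was nearly as high on control 1, at 5.98 against 6.01. The Nos3 probes ILMN_2788593 and ILMN_2729153 were highest on control 2 (7.19) and control 3 (6.94), with captopril 2 at 6.91 on each. The part of endothelial content in those values was not tested.

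Prkg1, the kinase on which both cGMP routes converge, had 4 probes, of which 1 was tested. ILMN_2473274 had log2 levels of 5.52, 5.79 and 5.38 in captopril cortex, against 5.89, 5.67 and 5.17 in control cortex. The captopril mice fell within the control range, and the difference was -0.01 (SE 0.21, 95% interval -0.49 to 0.46, limma adjusted p = 0.998). Its sign turned in 4 of the 6 fits that left out 1 array, which ran from -0.22 to 0.14, and also with median scaling (0.043) and with the adipocyte covariate (0.24). ILMN_2693295, of the same transcript, was detected on captopril arrays 2 and 3 and on no control array. Its levels of 4.62, 5.55 and 5.08 in captopril cortex overlapped 5.01, 4.58 and 4.93 in control cortex. ILMN_2576627, designed on a cDNA clone, was detected on captopril array 2 and control array 2, with levels of 4.55, 5.41 and 4.71 in captopril and 4.84, 5.17 and 4.93 in control cortex, which overlapped. ILMN_1253373, designed on another transcript, was undetected on every array, although its normalized levels of 4.59, 4.83 and 4.61 in captopril cortex lay just above 4.53, 4.39 and 4.57 in control cortex.

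**Figure D2:**
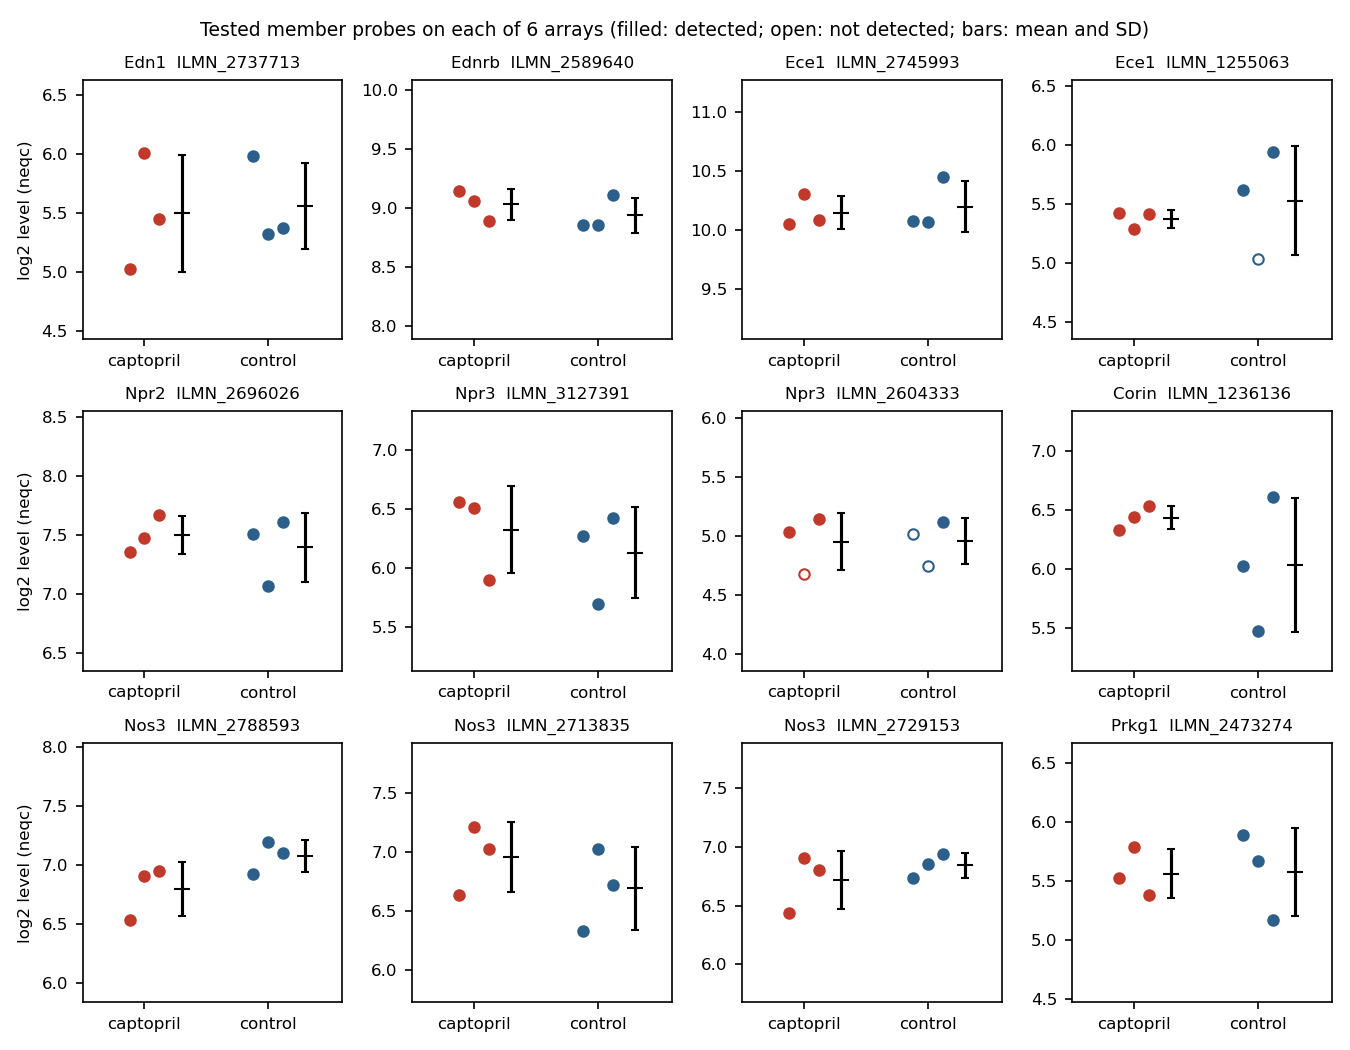
Log2 level after background correction and quantile normalization (vertical axis, the same span in each panel) of the 12 tested member probes on each array, captopril in red at the left and control in blue at the right, filled where the probe was detected, with mean and SD beside each group. The groups overlap in all 12 panels, and Corin shows 3 close captopril mice beside 3 scattered control mice.

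Across the systems no member probe passed the threshold. In limma 0 of the 12 tested probes had an adjusted p under 0.05 and 0 had an unadjusted p under 0.05, beside 0.0182% and 4.28% of all 16500 tested probes. The groups were free of overlap in 0 of the 12 tested probes, beside 8.69% of all tested probes. Over all 23 member probes they did not overlap in 2, both higher in captopril cortex and both near or below the detection limit (Ednrb ILMN_2917471 and Prkg1 ILMN_1253373), beside 9.48% of all probes and, for captopril higher alone, 4.44%. Values were higher in captopril cortex for 5 and lower for 7 of the 12 probes, and they were higher for 49.6% of all tested probes. The median log2 difference was -0.01, beside -0.002 over all tested probes, and the median of its absolute size was 0.12 both for the members and for all tested probes. Differences ran from -0.28 to 0.40, and the half-widths of the 95% intervals from 0.32 to 0.63. The median SE was 0.19, beside 0.16 over all tested probes.

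**Figure D3:**
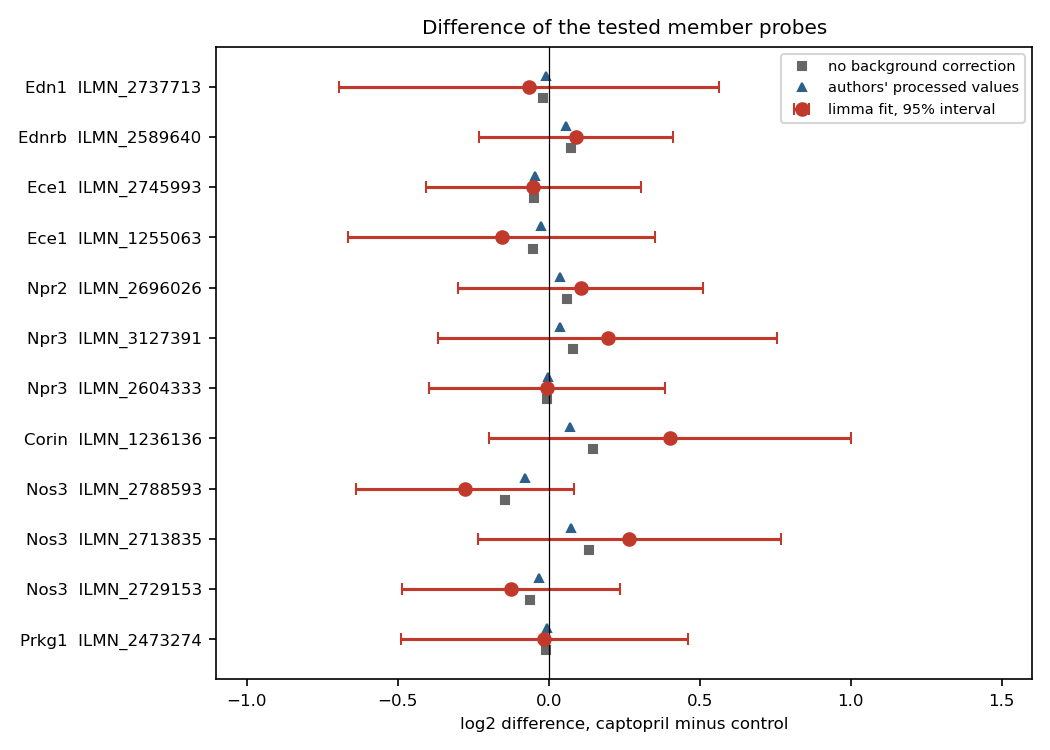
Log2 difference, captopril minus control (horizontal axis), of the 12 tested member probes, with the limma estimate and its 95% interval in red, the value without background correction as grey squares and that in the authors' processed values as blue triangles. Every interval includes 0, and the 3 Nos3 probes lie on both sides of it.

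The probes of the peptide genes around the members were rarely detected in cortex, which does not show that the transcripts were scarce. Edn2 and Edn3, the other endothelin genes, were detected on 0 of 6 arrays by 1 and 2 probes. Nppb, which encodes the brain natriuretic peptide, was also detected on 0 of 6, with intensities of 103 to 139. Nppa, for the atrial peptide, and Nppc, for the C-type peptide, were each detected on 1 of 6 arrays, in both cases control array 2. Of the 6 enzyme genes in the endothelin list, Ece2 and Mme were tested, whereas Kel, Ecel1 and Mmel1 were detected on 0 of 6 arrays and Cma1 on 1. Ece2, an endothelin-converting enzyme, had log2 levels of 6.44, 6.62 and 6.95 in captopril cortex, against 6.90, 7.00 and 6.89 in control cortex, and differed by -0.26 (SE 0.16), while its other tested probe gave -0.24. Mme, the neprilysin gene whose product degrades both peptide families, differed by 0.09 (SE 0.13, 95% interval -0.20 to 0.38), and Furin by 0.04 (SE 0.13).

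Among the genes for nitric oxide and cGMP, the other nitric oxide synthases Nos1 and Nos2 were each detected on at most 1 of 6 arrays by any of their 2 probes. Gucy1a1 encodes the alpha 1 subunit of the soluble guanylyl cyclase that nitric oxide activates. Its brightest probe had levels of 8.40, 8.53 and 8.12 in captopril cortex, against 8.16, 8.23 and 8.35 in control cortex, and differed by 0.10 (SE 0.15). The 4 tested Gucy1a1 probes ran from -0.05 to 0.46. Gucy1b1, for the beta 1 subunit, was detected on 1 of 6 arrays, Prkg2, the second cGMP-dependent kinase gene, on 2, and Pde5a, whose product breaks down cGMP, on 0 by both its probes. These genes were not tested.

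Of the 66 genes listed around the members by pathway, 63 had a probe and 36 were tested. In limma 0 rose and 0 fell past the threshold, and 0 had an unadjusted p under 0.05, beside 0% and 3.69% of the 9718 named genes tested. Values were higher in captopril cortex for 19 and lower for 17 genes, beside 49.1% of all named genes higher, and their median difference was 0.005, beside -0.003. The groups were free of overlap in 0 of the 36 genes, beside 8.73% of all named genes. The lists for endothelin processing, natriuretic peptide processing, nitric oxide synthesis, cGMP and receptor Gq signalling had 2, 3, 10, 7 and 14 tested genes and median differences of -0.08, 0.04, -0.01, 0.02 and 0.005. The smallest unadjusted p-values belonged to Plcb3, Rgs5 and Cav1. Plcb3, a phospholipase C gene of the Gq pathway, differed by 0.30 (SE 0.15), with levels of 7.97, 7.74 and 7.64 in captopril cortex, against 7.48, 7.32 and 7.65 in control cortex. Cav1, whose product caveolin 1 binds and restrains endothelial nitric oxide synthase, differed by 0.38 (SE 0.20), with captopril 1 and 3 at 7.54 and 7.37 and captopril 2 at 6.78, against 6.77, 6.81 and 6.96 in control cortex. Caveolin 1 is abundant in fat cells, and captopril 1 and 3 were the mice with the highest centred adipocyte marker levels, 0.84 and 0.73. By the summed log2 level captopril 1, at 14.00, lay below captopril 2 at 14.11 and control 2 at 14.05. The fit with the adipocyte covariate included Cav1, and 0 of the 36 tested pathway genes passed the threshold in it. The Cav1 difference of that fit is not given here, and the part of fat in the Cav1 value was not assessed. Rgs5, a regulator of G protein signalling in pericytes, differed by -0.40 (SE 0.21) and was undetected on captopril array 3.

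**Figure D4:**
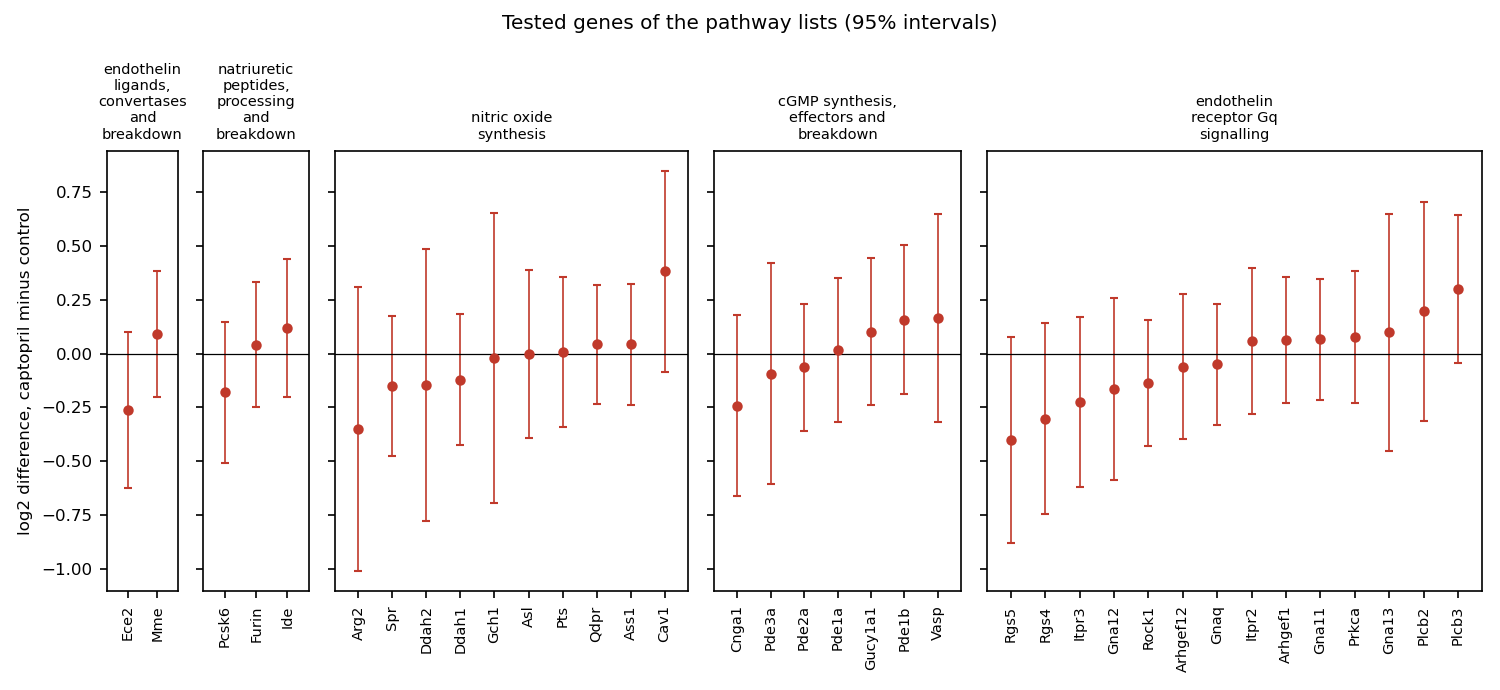
Log2 difference, captopril minus control (vertical axis), of the 36 tested genes of the pathway lists at their brightest probe, with 95% intervals from limma and the genes of each list in order of their difference. Every interval includes 0, from Rgs5 at -0.40 to Cav1 at 0.38.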

How the data were processed

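The deposited scanner-level table gave a linear bead intensity and a detection p-value for each probe and array, per the file headers; it was not normalized. The authors' processed values, a second deposited table, are log2-like with an unstated transform; lumi is named in the submitters' processing notes. They keep each array's probe order and compress dim signals (slope on log2 intensity 0.38 to 0.44 under 150, 1.01 to 1.08 over 5000).

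Intensities were processed with neqc of limma 3.58.1 in R 4.3.3 (negative controls inferred from detection p-values, offset 16, quantiles, log2). Probes detected at p under 0.05 on at least 3 of 6 arrays entered lmFit and eBayes on all 6 arrays, without covariates, two-sided, captopril minus control, with Benjamini-Hochberg adjustment over 16500 probes and a threshold of 0.05. The fit was tested on simulated data. Exact permutation of 3 against 3 arrays cannot go below p = 0.1.

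GEO's platform annotation gave 34885 probes 1 symbol, and 10396 probes are unnamed here. Member probes are given one by one, and pathway and marker genes by their brightest tested probe. The rule names every member probe, a fixed set of pathway genes (Edn2, Edn3, Ece2, Nppa, Nppb, Nppc, Gucy1a1, Gucy1b1, Prkg2, Pde5a, Mme, Nos1 and Nos2) and the 3 pathway genes of smallest unadjusted p. Furin, Lpl, Adipoq, Car3, Fabp4, Nphs1, Podxl, Eng, Esam, Kel, Ecel1, Mmel1, Cma1 and the Nos3 probe pairs were singled out after their values were seen. Members, lists, tests and alternatives were chosen with earlier results of these data known.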

Additional observations from a re-analysis of the deposited data

How the results depend on the processing

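The counts of 0 member probes and 0 pathway genes past the threshold in limma stood at 0 under each alternative that was run. They were the fit on uncorrected intensities, normexp with no control probes, scaling by medians, the deposited processed table, both other filters on dim probes, eBayes with trend and robust options, the replicate number as a block, an adipocyte covariate and each array left out. At an unadjusted p under 0.05 there were 0 or 1 member probes and 0 to 2 pathway genes. Without control array 3 Corin had an unadjusted p of 0.0093, and without control array 2 the dimmer Ece1 probe had 0.0364, with adjusted p-values of 0.9998 and 1. Filters, eBayes options and the replicate block leave the fitted difference of a probe as it is. Of the 129 values of single probes under the other alternatives, 111 kept their sign and 18 did not. With median scaling the brighter Ece1 probe stood at 0.035, the dimmer Npr3 probe at 0.029 and Prkg1 at 0.043, and with the adipocyte covariate Edn1 stood at 0.33 and Prkg1 at 0.24. Leaving out 1 array moved Edn1 from -0.33 to 0.16, the Ece1 probes from -0.13 to 0.075 and from -0.41 to 0.052, Npr2 from -0.058 to 0.21, the Npr3 probes from -0.024 to 0.41 and, in the 3 fits that kept it, from -0.12 to 0.13, Nos3 ILMN_2729153 from -0.22 to 0.014 and Prkg1 from -0.22 to 0.14. Without a turn, it moved Ednrb from 0.033 to 0.18, Corin from 0.12 to 0.69, Nos3 ILMN_2713835 from 0.085 to 0.44 and ILMN_2788593 from -0.35 to -0.14. The cause of these turns was not tested. Same-numbered mice did not deviate together (correlations of 0.004, 0.01 and 0.04), and with the replicate block 0 member probes passed and the smallest adjusted p was 0.961. No chip or scan is named in the tables, so no such block was run. The stricter filter left 7 member probes. The 11 untested member probes had intensities of 90.2 to 168 and entered only the fit with no filter on dim probes. In that fit 0 of the 23 member probes passed the threshold, and 1, Ednrb ILMN_2917471, had an unadjusted p under 0.05 in limma.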
